A study of Homo sapiens with 4 samples.

Results

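Bone morphogenetic proteins (BMPs) were followed here through 10 genes of the pathway, out of 60612 genes in the count table. The genes were picked by name: the ligands BMP2, BMP4, BMP5 and BMP7, the receptors BMPR1A, BMPR1B and BMPR2, and the inhibitors SMAD6, SMAD7 and BAMBI. They were picked with the result for BMP5 already known, namely that its rise between the groups compared below was among the largest. The values of all 10 genes in that comparison are therefore a description, and no p-value or call is given for them.

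RNA was sequenced from IMR-32 cells, a human line long established from a neuroblastoma, in which the MYCN gene is amplified. Cells labelled shControl, for a control hairpin (2 libraries), were compared with cells carrying a hairpin against NeuroD1 (shNeuroD1, 2 libraries). NeuroD1 is a basic helix-loop-helix transcription factor of neural development. Both groups were given doxycycline at 1 µg/mL for 48 h to induce the hairpin, so they share the drug. The paper's text calls the controls parental cells, while its figures call them shNC, so whether they were transduced is uncertain. The labels give the control cells the genotype WT. They do not say which hairpin against NeuroD1 was used, nor whether the 2 libraries of a group came from separate cultures, so p-values measure only the spread between these libraries. The hairpins of the study are named shNeuroD1-1 and shNeuroD1-2, as the titles of the knockdown libraries are, so the libraries called replicates 1 and 2 here may carry different hairpins, and hairpin and replicate cannot then be told apart.

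BMPs are secreted dimers of the TGF-beta superfamily. They bring together type I and type II receptor kinases at the cell surface, the type I receptor phosphorylates SMAD1, SMAD5 and SMAD9, and these enter the nucleus with SMAD4 to act on genes such as the ID family. The pathway is held back outside the cell by antagonists such as noggin and chordin, at the membrane by the decoy receptor BAMBI, and inside the cell by the inhibitory SMADs. In the embryo, BMPs made by the dorsal aorta direct neural crest cells towards the sympathetic lineage from which neuroblastoma arises.

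The start regions of 4 pathway genes are printed. BMP5 is shown as the gene with the largest log2 fold change of the 10, and SMAD6 and BAMBI because they hold letter patterns bound by SMADs. ATOH8 is shown because it holds the NeuroD-type pattern CAGATG more than once. RefSeq promoter windows on GRCh38.p14, each 250 bases before to 50 bases after a transcript start, were matched by symbol for 8 of the 10 genes. BMP2 and BMP7 were not matched. Distances count from the start site, with the base before it at -1. The E-box CANNTG is the letter pattern bound by basic helix-loop-helix factors, and CAGATG together with CAGCTG are the forms linked to NeuroD factors, and each of these counts again as an E-box. Both strands were searched, so the form CAGATG was also found as its reverse complement CATCTG.

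The BMP5 window is shown for the 250 bases before the start, with no capitals because neither strand held CANNTG. The SMAD6 stretch has capitals on GTCTAGAC, the palindrome bound by SMAD proteins. The BAMBI stretch has capitals on GGCGCC, a GC-rich pattern also bound by SMADs. The ATOH8 stretch, from a BMP target that fell after knockdown, has capitals on CAGATG.
BMP5, chr6:55875591-55875840, minus strand: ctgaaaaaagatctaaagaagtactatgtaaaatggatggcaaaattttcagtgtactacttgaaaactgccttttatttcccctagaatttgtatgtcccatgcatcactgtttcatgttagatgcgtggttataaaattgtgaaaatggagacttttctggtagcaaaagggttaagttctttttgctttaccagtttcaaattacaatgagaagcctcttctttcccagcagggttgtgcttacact
SMAD6, chr15:66702176-66702235, plus strand: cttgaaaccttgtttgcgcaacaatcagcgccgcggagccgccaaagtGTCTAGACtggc
BAMBI, chr10:28677296-28677365, plus strand: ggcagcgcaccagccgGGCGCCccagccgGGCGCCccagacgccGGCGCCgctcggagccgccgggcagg
ATOH8, chr2:85753926-85754000, plus strand: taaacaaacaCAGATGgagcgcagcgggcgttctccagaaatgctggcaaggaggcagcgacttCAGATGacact

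A gene can have several windows, so shares are given over all 35116 windows and over the 27305 genes with a window. CANNTG was present in 68.7% of windows and 73.1% of genes, and in 6 of the 8 genes, all but BMP5 and BAMBI. CAGATG was present in 14.7% of windows and 17.5% of genes, and among the 8 genes in BMPR1B alone. CAGCTG was in 17.9% of windows and 21.1% of genes, and in BMPR1B and BMPR2. GGCGCC was in 19.2% of windows and 22.0% of genes, and in BMP4, BMPR2 and BAMBI, and the BAMBI window held it at -209, -196 and -181. GTCTAGAC was in 0.202% of windows and 0.256% of genes and, of the 8 genes, in SMAD6 alone, at -12. The ATOH8 window held CAGATG at -55 and -1, and ATOH8 was 1 of 9 genes with CAGATG among the 47 other BMP pathway genes with a window. A match describes letters in these windows, and a missing match says only that the letters are not in the window. The windows need not lie at the starts used in these cells. The RefSeq starts of BMPR1A and BMPR2 were 838 and 695 bases from the nearest start in the deposited FPKM tables. Those of SMAD7 were 5698, 828 and 1087 bases away. No such distance was available for BMP4 and ATOH8.

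The 4 libraries held 14665210 to 16482463 counts over 26071 to 27121 genes with at least 1 count. NEUROD1 itself stood at 6174 and 6582 counts in shControl and at 969 and 886 in shNeuroD1. Its log2 fold change was -2.77 (SE 0.0504, adjusted p = 8.6e-29 in edgeR), and both knockdown libraries lay below both controls. The 8 adrenergic neuroblast markers were all detected, with a summed level of 4068 to 4165 CPM (counts scaled to a library of fixed size) in shControl and 3796 to 3826 CPM in shNeuroD1. The 8 mesenchymal markers summed to 491.5 to 492.4 CPM in shControl and 720.7 to 729.6 CPM in shNeuroD1. Of these, VIM and CD44 passed the test (edgeR, adjusted p under 0.05) as higher, FN1, SNAI2, YAP1, COL1A1 and TWIST1 as lower, and PRRX1 had 0 counts in every library. The 3 endothelial markers were near 0 throughout, but their sum was 1.32 to 1.42 CPM in shControl and 0.0657 CPM in each shNeuroD1 library, mostly from CDH5, counted 18 and 17 times in control cells and 1 and 0 times after knockdown. The 3 blood markers summed to at most 0.263 CPM. The adrenergic, mesenchymal and endothelial sums all moved with the group, and their part in the values below was not tested. The higher mesenchymal sum after knockdown came mainly from VIM, at 243 and 239 CPM in shControl and 549 and 544 CPM in shNeuroD1. In a bulk sample, fewer cells of a kind and less RNA per cell cannot be told apart.

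Of the ligands, BMP5 was close to absent in control cells and clearly present after knockdown. BMP5, a ligand best known from skeletal and neural crest development, was counted 6 and 8 times in control cells and 319 and 282 times after knockdown. Both knockdown libraries lay far above both control libraries. The control mean was 0.455 ± 0.0684 CPM (SD, n = 2) and the knockdown mean 19.7 ± 1.73 CPM (SD, n = 2), a 43.4-fold difference. The fitted log2 fold change of BMP5 was 5.41 (SE 0.231). BMP5 reached the minimum count for testing through the shNeuroD1 libraries alone, so a difference was built into its passing.

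BMP5 lies on the minus strand of chromosome 6, chr6:55753645-55875564 in GENCODE 29 on GRCh38, and no exon of another annotated gene overlaps its exons. The deposited FPKM tables (fragments scaled to transcript length and library size, for assembled transcripts) listed BMP5 in the shNeuroD1 libraries only, at 3.40 and 3.36 FPKM. They listed a single start and a single end of transcription for it, and the listed start coincided with the RefSeq start of the window printed above. The tables omit any event at 0, so for shControl they say only that no BMP5 transcript was listed.

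The other ligands stayed low in every library. BMP7, a ligand of kidney and eye development, was counted 11 and 6 times in control cells and 11 and 5 times after knockdown. Its log2 fold change was -0.08 (SE 0.575), and the groups overlapped. BMP4, a ligand of early mesoderm and neural crest, had 2 and 5 counts in shControl and 1 in each shNeuroD1 library, too few to be tested. BMP2, its closest relative, had 1 count in replicate 1 of each group and 0 in replicate 2, which is at or under the floor of 3 counts that a reading of 0 allows. The 4 ligands together summed to 20 and 19 counts in control cells and to 332 and 288 after knockdown. Per kilobase of exon, BMP5 made up 33.9% and 42.6% of the summed level of the 4 ligands in shControl and 96.8% and 98.3% in shNeuroD1.

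**Figure D1:**
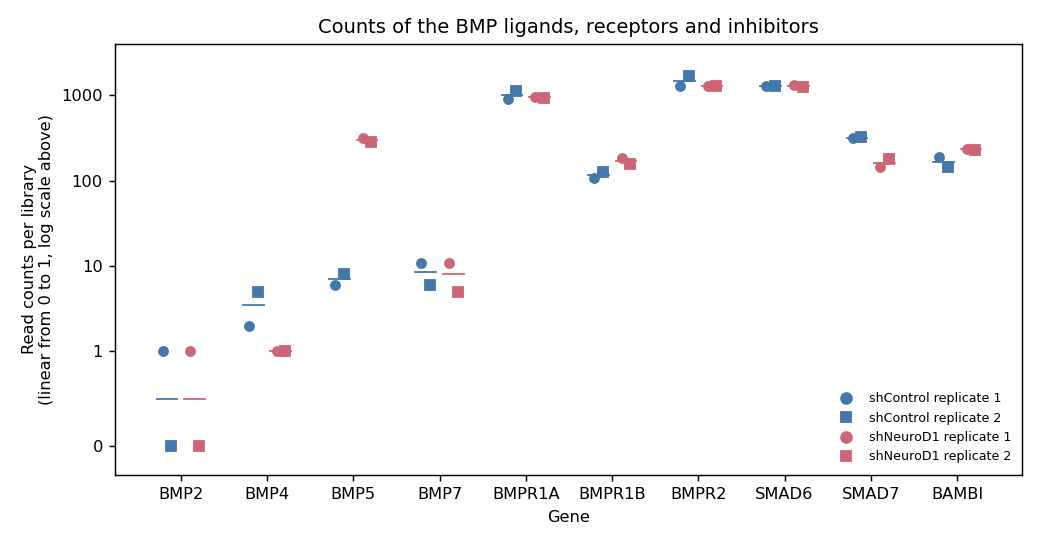
Read counts of the 10 genes in each of the 4 libraries, on an axis that is linear from 0 to 1 and logarithmic above, with a short line at each group mean. BMP5 moves from 6 and 8 counts in shControl to 319 and 282 in shNeuroD1, while BMP2, BMP4 and BMP7 stay at 11 counts or fewer in every library.

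The receptors differed far less than BMP5. BMPR1A, a type I receptor kinase, was counted 909 and 1123 times in control cells and 968 and 941 times after knockdown. The shNeuroD1 values lay between the control values, and the log2 fold change was -0.08 (SE 0.0644). BMPR1B, the second type I receptor specific to BMPs and the more restricted of the pair, was counted 108 and 125 times in control cells and 186 and 156 times after knockdown. Both knockdown libraries were above both controls, at 11.2 ± 1.40 CPM (SD, n = 2) against 7.60 ± 0.385 CPM (SD, n = 2), a log2 fold change of 0.56 (SE 0.147).

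BMPR2, the type II receptor that phosphorylates the type I receptors, was counted 1277 and 1691 times in control cells and 1277 and 1284 times after knockdown. On the CPM scale the groups did not overlap, with 86.6 and 106.5 CPM in shControl and 83.9 and 84.3 CPM in shNeuroD1, but the lower control library lay close to the knockdown libraries. The log2 fold change of BMPR2 was -0.20 (SE 0.0653) and rested on shControl replicate 2, without which it was -0.05. The FPKM tables gave no single order for BMPR2. Its transcript start was at 5.01 and 4.55 FPKM in shControl and 5.55 and 5.91 FPKM in shNeuroD1, while the inclusion of an internal exon was at 5.01 and 6.01 FPKM in shControl and 4.66 and 4.92 FPKM in shNeuroD1.

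Among the inhibitors, the level of SMAD7 was lower after knockdown, that of BAMBI was higher, and that of SMAD6 was flat by counts. SMAD7, which blocks receptor-regulated SMADs of both the BMP and the TGF-beta branch at the receptor, was counted 316 and 323 times in control cells and 145 and 180 times after knockdown. The groups were well separated. The control mean was 20.9 ± 0.777 CPM (SD, n = 2), and the knockdown mean, 10.7 ± 1.62 CPM (SD, n = 2), was 51.1% of it. The log2 fold change of SMAD7 was -0.97 (SE 0.120). The SMAD7 FPKM had the same order with the groups closer together, at 3.30 and 2.11 in shControl and 1.56 and 1.73 in shNeuroD1.

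SMAD6, the inhibitory SMAD that acts mainly on BMP signalling, was counted 1272 and 1280 times in control cells and 1329 and 1239 times after knockdown. The groups overlapped, and the log2 fold change was 0.02 (SE 0.0570). The FPKM tables gave another picture for SMAD6, with 2.99 and 5.43 FPKM in shControl and 11.2 and 8.08 FPKM in shNeuroD1. These tables split SMAD6 between 2 listed first exons from the same start. The longer first exon was at 0 and 2.59 FPKM in shControl and at 6.76 and 6.37 FPKM in shNeuroD1, and the shorter was at 2.99 and 2.83 FPKM in shControl and at 4.44 and 1.70 FPKM in shNeuroD1. In these tables the gap between the groups in the FPKM of SMAD6 therefore lay in the longer form. Counts per gene do not separate the forms. Whether the split reflects the RNA or the assembly of transcripts was not tested.

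BAMBI, a membrane protein that resembles a type I receptor but lacks the kinase, was counted 191 and 143 times in control cells and 237 and 230 times after knockdown. Both knockdown libraries were above both controls, which differed from each other. The control mean was 11.0 ± 2.80 CPM (SD, n = 2) and the knockdown mean 15.3 ± 0.336 CPM (SD, n = 2), with a log2 fold change of 0.49 (SE 0.138). It was 0.23 without shControl replicate 2 and 0.76 without shControl replicate 1. The BAMBI FPKM had the same order as the counts, at 3.96 and 2.92 in shControl and 5.86 and 6.09 in shNeuroD1.

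In all, 8 of the 10 genes passed the filter on low counts and BMP2 and BMP4 did not. The genes were picked with this comparison known, and BMP5 passed the filter only through the group in which it was high, so the thresholds used for other genes below were not applied to these 10.

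Levels of different genes were compared per kilobase of exon. In shControl the order of mean level ran SMAD6 (9.75 CPM per kb), BMPR2 (8.11), BMPR1A (5.80), BAMBI (4.75), SMAD7 (4.15), BMPR1B (1.20), BMP5 (0.115), BMP7 (0.104), BMP4 (0.0731) and BMP2 (0.00942). The ranges of BMPR1A and BAMBI overlapped, as did those of BAMBI and SMAD7, of BMP5 and BMP7, and of BMP7 and BMP4. All receptors and inhibitors thus stood above all 4 ligands in control cells. In shNeuroD1 the BMP5 level was 4.996 ± 0.438 CPM per kb (SD, n = 2), which placed it between BMPR1A (5.50) and SMAD7 (2.12). Its 2 values, 5.31 and 4.69 CPM per kb, did not overlap the 5.58 and 5.42 CPM per kb of BMPR1A. In shNeuroD1 the ranges of SMAD7 and BMPR1B overlapped, and no other neighbours in the order did.

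**Figure D2:**
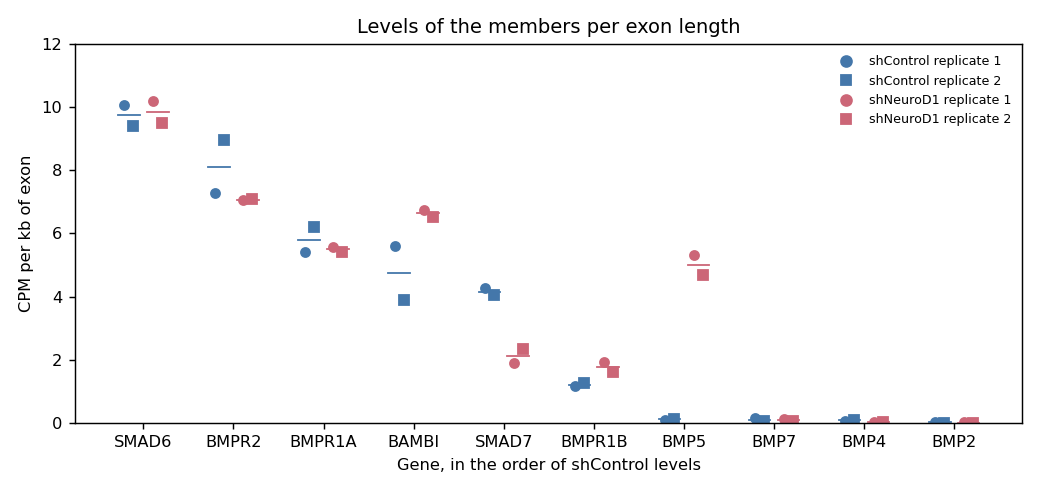
Level of each of the 10 genes per library in CPM per kb of exon, in the order of the shControl means, with a short line at each group mean. BMP5 stands with the other ligands near 0 in shControl and at 5.31 and 4.69 CPM per kb in shNeuroD1, while SMAD7 has means of 4.15 and 2.12.

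The 5 tested genes named here lay closest to BMP5 in their pattern over the 4 libraries, by the root mean square difference of log2 CPM after each gene's own mean was removed. They were XAGE1A (0.176), CMAHP (0.293), FAM230C (0.321), NAT16 (0.336) and ZNF541 (0.369). A rise after knockdown follows from how they were picked. All had 5 counts or fewer in each shControl library, where log2 CPM rests largely on the prior count of 2, so their order is uncertain. XAGE1A, the closest, had a fitted log2 fold change of 6.80, and CMAHP had 5.73, beside 5.41 for BMP5. NAT16, for example, was counted 3 and 3 times in control cells and 120 and 96 times after knockdown, and CMAHP had 5 and 3 against 221 and 215. XAGE1A has near-identical copies on chromosome X, so its counts of 0 and 1 against 68 and 70 are uncertain.

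The rest of the pathway was read from a list of 58 BMP genes arranged by role, which was also drawn up with results of these data known. Of these, 41 were tested and 17 had too few counts. At an adjusted p under 0.05 in edgeR, 15 were higher in shNeuroD1, 13 were lower and 13 did not pass, which is 28 of 41 tested genes beside the 26.8% higher and 28.2% lower among all genes. Past a log2 fold change of 1 in size as well, 5 were called higher and 4 lower, beside 8.79% and 5.14% of all tested genes. The same shares over all genes stand beside the counts by role below. The median log2 fold change over the 41 genes was 0.08, beside 0.01 over all genes.

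**Figure D3:**
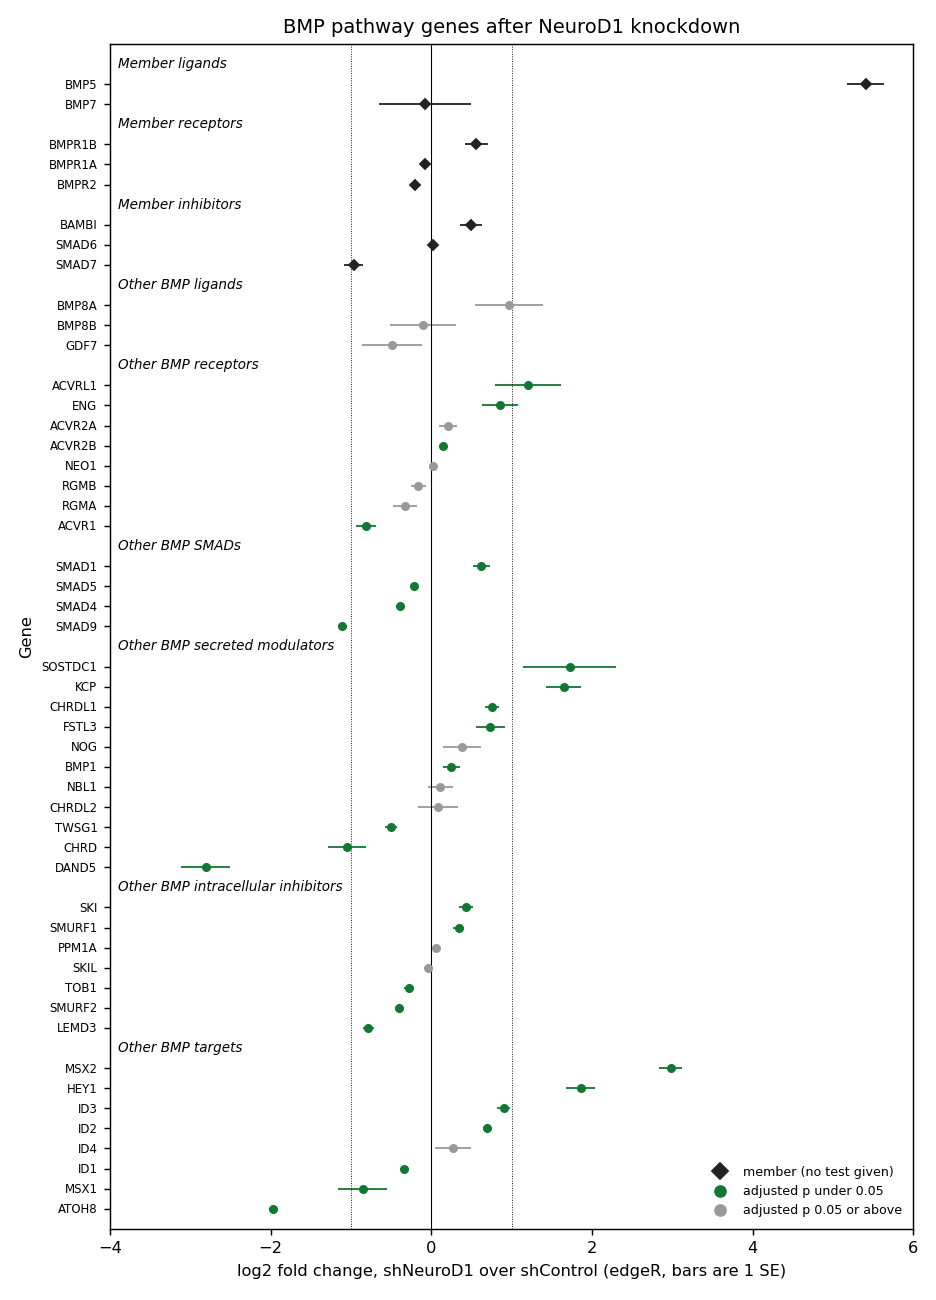
Log2 fold change of shNeuroD1 over shControl for the 8 members that passed the filter (diamonds) and the 41 other tested BMP genes (circles), grouped by role, with bars of 1 SE from edgeR and dotted lines at a size of 1. BMP5 at 5.41 lies to the right of every other gene shown, and DAND5 at -2.81 lies farthest to the left.

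Of the other 10 ligands, 3 were tested and 0 passed in edgeR, with BMP8A below an unadjusted p of 0.05, and 0 passed in DESeq2. BMP8A, named after its values were seen, passed in edgeR when libraries were scaled by size alone (log2 fold change 1.08, adjusted p = 0.033) and with a filter at a mean of 1 CPM (0.98, adjusted p = 0.048). GDF7, the one with the most counts, had 22 and 29 in shControl and 22 and 14 in shNeuroD1 (log2 fold change -0.49, SE 0.372, edgeR adjusted p = 0.28). The tested pair BMP8A and BMP8B are near-identical copies, and their counts are uncertain. BMP5 in each shNeuroD1 library had more counts than any other BMP ligand measured in any library.

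Of the 9 other receptors and co-receptors, 8 were tested, of which 3 passed as higher and 1 as lower. ACVRL1, a type I receptor best known from endothelium, rose from 13 and 10 counts to 33 and 20 (log2 fold change 1.20, SE 0.412, edgeR adjusted p = 0.014). The call for ACVRL1 was lost without the filter on low counts (adjusted p = 0.062) and in DESeq2 (adjusted p = 0.19). ACVR2B, a type II receptor shared with activins and the receptor of this group with the most counts, was counted 1949 and 2401 times in control cells and 2368 and 2402 times after knockdown (log2 fold change 0.14, SE 0.0524, edgeR adjusted p = 0.021). Its pass was lost without the filter on low counts (adjusted p = 0.21), in DESeq2 (adjusted p = 0.20), with limma on the FPKM (adjusted p = 0.46 with either value added) and on leaving out shControl replicate 1 (adjusted p = 0.39), shNeuroD1 replicate 1 (0.078) or shNeuroD1 replicate 2 (0.13). ACVR1, a type I receptor chosen for mention after its values were seen, fell from 246 and 282 counts to 153 and 145 (log2 fold change -0.82, SE 0.123, edgeR adjusted p = 1.1e-06). ACVR1 kept this direction but did not pass with limma on the FPKM (adjusted p = 0.20 with 1 added and 0.29 with 0.1 added).

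All 4 signal-carrying SMADs passed the test, 1 as higher and 3 as lower, beside 26.8% higher and 28.2% lower among all genes. They are all named here although only SMAD9 met the rule for naming. SMAD9, a receptor-regulated SMAD of the BMP branch with weak transcriptional activity, fell from 5291 and 5818 counts to 2582 and 2516 (log2 fold change -1.11, SE 0.0435, edgeR adjusted p = 2.8e-20). It had the most counts of the 4 in each library, and both knockdown values were under the lower control value. SMAD1 rose from 231 and 225 counts to 344 and 354 (log2 fold change 0.62, edgeR adjusted p = 6.1e-06). SMAD5 fell from 2483 and 2721 counts to 2235 in each library (-0.21, edgeR adjusted p = 0.00023), a change that did not pass when libraries were scaled by size alone (adjusted p = 0.069). SMAD4, the partner common to both branches, fell from 2233 and 2285 counts to 1691 and 1743 (-0.39, edgeR adjusted p = 4.9e-08). SMAD1, SMAD4 and SMAD5 share exon bases with other annotated genes, and the use of strand in counting is not given in the sources used here, so their counts are uncertain.

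Of the 20 secreted modulators, 11 were tested, of which 5 passed as higher and 3 as lower. DAND5, an antagonist of nodal and BMPs in left-right patterning, fell from 69 and 88 counts to 13 and 9 (log2 fold change -2.81, SE 0.306, edgeR adjusted p = 2.2e-09). CHRD, chordin, which binds BMPs and keeps them from their receptors, fell from 65 and 77 counts to 32 and 36 (-1.05, SE 0.239, edgeR adjusted p = 0.00039), with exon bases shared with THPO. KCP, a chordin-like protein that enhances BMP signalling, rose from 37 and 28 counts to 103 and 100 (1.65, SE 0.223, edgeR adjusted p = 1.7e-07), with exon bases shared with ATP6V1F. SOSTDC1, an antagonist of BMP and Wnt signals, rose from 2 and 7 counts to 19 and 11 (1.72, SE 0.581, edgeR adjusted p = 0.013). Its call was lost without the filter on low counts (adjusted p = 0.085) and in DESeq2 (adjusted p = 0.19). SOSTDC1 reached the minimum count for testing through the shNeuroD1 libraries alone, so a difference was built into its passing. TWSG1, a chordin cofactor and the modulator with the most counts, fell from 625 and 744 counts to 473 and 487 (-0.50, edgeR adjusted p = 1.2e-06). Antagonists thus stood on both sides. CHRDL1, a BMP antagonist of neural tissue named after its values were seen, rose from 286 and 340 counts to 525 and 528 (0.76, edgeR adjusted p = 6.4e-09). CHRDL1 kept this direction but did not pass with limma on the FPKM (adjusted p = 0.069 with 1 added and 0.070 with 0.1 added). NOG, noggin, also named after its values were seen, was counted 40 and 52 times in control cells and 58 and 61 times after knockdown (0.38, SE 0.234, edgeR adjusted p = 0.17).

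Of the 7 other intracellular inhibitors, 2 passed as higher, 3 as lower and 2 did not pass, and none was past a log2 fold change of 1 in size. SMURF2, a ubiquitin ligase that SMAD7 brings to the receptors and the gene of this role with the most counts, fell from 1553 and 1843 counts to 1290 and 1272 (log2 fold change -0.40, SE 0.0551, edgeR adjusted p = 2.7e-07). Its exons share bases with CEP95.

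The 8 target genes of BMP signalling did not move together. Of these, 4 passed as higher (MSX2, HEY1, ID3 and ID2), 3 as lower (ATOH8, MSX1 and ID1), and ID4 did not pass, with a median log2 fold change of 0.48. MSX2, a homeobox factor of neural crest and skull, rose from 49 and 50 counts to 375 and 404 (log2 fold change 2.98, SE 0.142, edgeR adjusted p = 5.3e-18). HEY1, a repressor shared with Notch signalling, rose from 43 and 49 counts to 171 and 161 (1.86, SE 0.179, edgeR adjusted p = 1.5e-10). ATOH8, a basic helix-loop-helix factor whose start region is printed above, fell from 5061 and 5215 counts to 1349 and 1249 (-1.98, SE 0.0492, edgeR adjusted p = 2.5e-25). In each of these 3 genes the knockdown libraries lay apart from the control libraries.

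The ID genes encode inhibitors of basic helix-loop-helix factors and are the classical direct readout of BMP SMADs. They and MSX1 were named after their values were seen, so as to give every target. ID3 rose from 348 and 356 counts to 661 and 646 (log2 fold change 0.90, SE 0.0799, edgeR adjusted p = 2.4e-11). ID2 rose from 1042 and 1039 counts to 1721 and 1629 (0.69, SE 0.0564, edgeR adjusted p = 3.2e-12). ID1 fell from 1165 and 1183 counts to 908 and 944 (-0.33, SE 0.0593, edgeR adjusted p = 1.5e-05). The 3 genes of this family with over 300 counts in each library thus differed in direction, and ID1, ID2 and ID3 kept these directions under each other scaling of the libraries. ID4 was counted 56 and 58 times in control cells and 82 and 55 times after knockdown, and the groups overlapped (0.27, SE 0.223, edgeR adjusted p = 0.31). MSX1, a homeobox factor like MSX2, fell from 45 and 37 counts to 21 and 24 (-0.86, SE 0.309, edgeR adjusted p = 0.019), and its pass was lost in DESeq2 (adjusted p = 0.21) and on leaving out shControl replicate 1 (0.14) or shNeuroD1 replicate 1 (0.097).

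**Figure D4:**
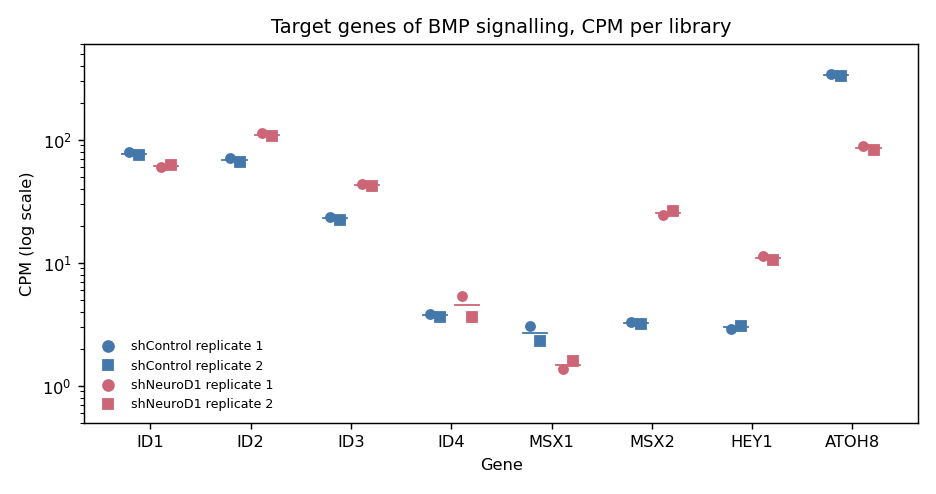
CPM of the 8 BMP target genes in each library on a log axis, with a short line at each group mean. MSX2, HEY1, ID2 and ID3 are higher in both shNeuroD1 libraries than in both shControl libraries, ATOH8, ID1 and MSX1 are lower in both, and the ID4 groups overlap.

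The related TGF-beta and activin branch also held calls in both directions. Of 21 genes, 16 were tested, with 5 passing as higher, 7 as lower and a median log2 fold change of -0.32. Among all tested genes, 26.8% passed as higher and 28.2% as lower. Past a log2 fold change of 1 in size as well, 1 was called higher and 4 lower, beside 8.79% and 5.14% of all tested genes. INHBE, an inhibin subunit gene also known from stress responses, fell from 327 and 304 counts to 8 and 3 (log2 fold change -5.80, SE 0.250, edgeR adjusted p = 3.6e-19). INHBA, which encodes the subunit of activin A, fell from 32 and 28 counts to 2 and 3 (-3.51, SE 0.539, edgeR adjusted p = 1.5e-06). INHBE and INHBA reached the minimum count for testing through the shControl libraries alone, so a difference was built into their passing. TGFBR3, the betaglycan co-receptor, and ACVR1C, a type I receptor of nodal and activins, were also called lower, at -1.41 and -1.19, of which ACVR1C did not pass in DESeq2 (adjusted p = 0.11). GDF11, a ligand of neural patterning, was the gene called higher, from 852 and 915 counts to 2070 and 2018 (1.22, SE 0.0539, edgeR adjusted p = 7.3e-19), with exon bases shared with SARNP. TGFBR1, the type I TGF-beta receptor and the gene of this list with the most counts, fell by 0.34 on the log2 scale (edgeR adjusted p = 1e-06). No difference between the branches was tested.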

How the data were processed

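Poly(A) RNA of 4 IMR-32 libraries was sequenced. The authors deposited raw read counts per Ensembl gene and, per library, FPKM values of transcript starts, ends and splicing events. The submitters' processing notes name cutadapt 1.9.1, HISAT2 2.0.1, HTSeq 0.6.1, DESeq2 and build hg38. The assembler behind the FPKM and the use of strand in counting are not given in the sources used here, so genes overlapping on either strand are uncertain. The FPKM tables list only events above 0. Groups came from the sample titles. The table also held the authors' own comparison columns (fold changes and p-values), which were not used.

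Symbols were found for 60401 of 60612 gene IDs, and exon lengths came from GENCODE 29. Counts were fitted in edgeR 4.0.16 (R 4.3.3) with TMM scaling, filterByExpr (minimum count 10) and the quasi-likelihood F test on group, two-sided, with Benjamini-Hochberg adjustment over 17537 genes. Genes passed at an adjusted p under 0.05 and were called where the log2 fold change was also above 1 or below -1. The SE is the size of the log2 fold change divided by the square root of F. CPM are TMM-scaled. The script was tested on simulated counts. Alternatives were DESeq2 1.42.0, other scalings and filters, a replicate block, and leaving out each library. A further alternative was limma 3.58.1 on log2(FPKM + 1) and log2(FPKM + 0.1). It covered 10083 genes whose FPKM, summed over transcript starts, averaged 1 or more, and NEUROD1 was left out of it.

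The members and the gene lists were chosen with earlier results of these data known. Text names all members, list genes past both thresholds, the highest-count gene per role, the 5 genes most like BMP5 over 4 libraries (log2 CPM, prior count 2), and NEUROD1. Other names were added once their values had been seen, as the text says. Total counts were 15403815 and 16482463 in shControl and 14665210 and 14677569 in shNeuroD1. Counting error alone is covered by the floor of 3 counts. Libraries of a group differed beyond sampling noise (chi-square per gene 2.53 in shControl and 1.56 in shNeuroD1), so none was merged as a duplicate, which does not show that they are separate cultures.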

Additional observations from a re-analysis of the deposited data

How the results depend on the processing

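Among other scalings, filters and tools on the counts, BMP5 kept its direction and size. Its log2 fold change was 5.26 to 5.56 when each library was left out. With limma, BMP5 was at 2.13 on log2(FPKM + 1) and 5.12 on log2(FPKM + 0.1), scales that shrink low genes. BMP5 was not listed in shControl and entered these fits as 0 there, so both sizes depend on the value added. BMPR2 reversed to 0.22 and 0.26 in the FPKM fits, and SMAD7 was at -0.47 and -0.65 there. Leaving out libraries gave -0.35 to -0.05 for BMPR2, 0.23 to 0.76 for BAMBI and -1.13 to -0.82 for SMAD7. ID4, not passing, ranged from -0.046 (reversed, without shNeuroD1 replicate 1) to 0.53, and SMAD5 reversed to 0.11 in both FPKM fits.

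Of the BMP list, 9 genes passed as higher in DESeq2 and 2 in each FPKM fit, and 1 passed as lower in each FPKM fit. Its genes called higher were 3 without the filter, 3 in DESeq2 and 1 in each FPKM fit, and called lower 1 in each FPKM fit. The calls for ACVRL1, CHRD, DAND5, HEY1, KCP, SMAD9 and SOSTDC1 were lost in both FPKM fits, which tested 27 genes of the list. Leaving out a library gave 10 to 13 passing higher, 11 to 13 passing lower, 3 to 6 called higher and 3 to 4 called lower. ACVRL1 and SOSTDC1 lost their calls without shControl replicate 1, shControl replicate 2 or shNeuroD1 replicate 1. CHRD lost its call without shControl replicate 2 or shNeuroD1 replicate 1 and under library size alone, which moved the median of all genes to 0.12 and added calls for BMP8A and ID3. MSX1 gained a call without shControl replicate 2, and ENG and NODAL without shNeuroD1 replicate 2. Of the TGF-beta and activin list, passing higher were 1 and 1, passing lower 1 and 0 and called lower 1 and 0 in the FPKM fits with 1 and 0.1 added, which tested 8 of its genes. Leaving out a library gave 3 to 5, 5 to 8 and 2 to 5, with 1 called higher each time. ACVR1C lost its call in DESeq2, and ACVR1C and TGFBR3 lost theirs without shControl replicate 1, and TGFBR3 also without shControl replicate 2. Over all genes, DESeq2 gave 2757 passing higher and 998 called higher. The FPKM fits gave 247 and 206 passing higher, 278 and 257 passing lower, 187 and 174 called higher, and 201 and 206 called lower, with fewer genes tested. Leaving out a library gave 2828 to 3860 passing higher, 3464 to 4213 passing lower, 1054 to 1337 called higher and 750 to 901 called lower. The cause of these shifts was not tested beyond the numbers of genes and libraries.

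Libraries with the same replicate number did not deviate together (r = 0.0158 over 17537 genes). What such libraries share besides the number was not tested. With the replicate number as a block, BMP5 was at 5.40, 1511 genes were called higher and 899 lower, and the 9 BMP list genes called were the same.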

Other observations

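For several pathway genes the deposited FPKM and counts were far apart. TOB1, an antiproliferative inhibitor of SMADs, was counted 1478 and 1364 times in control cells and 1150 and 1183 times after knockdown, but was listed at 0.342 FPKM in shControl replicate 2 and in no other library. ID2 had 1042 and 1039 counts in shControl with no listed start, and was at 27.8 and 2.01 FPKM in the shNeuroD1 libraries, whose counts were 1721 and 1629. TOB1 and ID2 were chosen after their values were seen. Such gaps were not confined to the pathway. NEUROD1 was at 5.29 and 15.2 FPKM in shControl and at 3.99 and 4.44 FPKM in shNeuroD1, closer together than its counts were. HAND2 had 11656 and 12452 counts in shControl but no listed start in any library. TWIST1 had 2101 and 2142 counts in shControl and was at 2.96 and 1.25 FPKM there. HAND2 and TWIST1 were likewise picked once their values had been seen.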
